A study of Mus musculus with 43 samples.

Results

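The circadian clock genes followed here were 10 transcripts chosen by symbol: *Arntl* (also called *Bmal1*), *Clock*, *Per1*, *Per2*, *Per3*, *Cry1*, *Nr1d1*, *Nr1d2*, *Dbp* and *Ciart*. All 10 were found among the 54532 genes of the read-count table, and all 10 were among the 18197 genes that passed the filter on low counts. No library had fewer than 127 counts of any of them. The question was whether the state of the retinal clock differed between the groups of the study or in single libraries.

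The data came from whole retinas of C57BL/6J mice whose choroid had been injured by a laser at 9 weeks of age, a model of choroidal neovascularization (CNV). Every group was lasered, and no unlasered retina was analysed here. Mice of the SCFA groups drank short-chain fatty acids in their water from before the laser until collection, as sodium salts of acetate (67.5 mM), propionate (40 mM) and butyrate (25 mM), whereas control mice had the laser lesion without SCFA. The g/L amounts stated beside these molarities place butyrate above propionate, so the doses of both are uncertain. Retinas of both sexes were taken 3, 7 or 14 days after the laser (dpl), which gives 12 groups of 3 to 5 libraries and 43 libraries in all, of which 24 were from SCFA and 19 from control mice. Each library was a pool of 2 retinas from different mice of the same group. The hour of collection is not given in the sources used here, so that a level cannot be placed on a clock time.

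The mammalian clock is a loop of transcription. ARNTL and CLOCK together switch on the *Per* and *Cry* genes, *Nr1d1*, *Nr1d2*, *Dbp* and *Ciart*, whose products then hold that drive in check: PER and CRY proteins and CIART inhibit ARNTL and CLOCK, and NR1D1 and NR1D2 (REV-ERB alpha and beta) repress *Arntl*. The retina holds such a clock of its own, which tunes it to day and night, and *Per1* is in addition switched on by light and by neuronal activity through cAMP response elements.

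Promoter windows of these genes were searched for the elements of the loop. RefSeq windows on GRCm38.p6 (mm10), from 250 bases before to 50 bases after each annotated start, were available for 9 of the 10 genes, all but *Per2*. Both strands were searched for the E-box bound by ARNTL and CLOCK (CACGTG), its variant (CACGTT), the D-box bound by DBP (TTATGNAA), the core bound by NR1D and ROR proteins (TAGGTCA) and the core of the cAMP response element (TGACGT). Of 32851 windows of all genes, 7.15%, 4.68%, 3.38%, 2.61% and 7.51% held these letters, respectively. The windows below, shown up to the first annotated exon base, belong to 3 genes whose levels are described in detail, and matches are in capitals. *Ciart* held 3 E-boxes, at chr3:95882252-95882478 on the minus strand. The upstream of 2 starts of *Per1*, at chr11:69098699-69098947 on the plus strand, held an E-box and a D-box and lies in an intron of a longer annotated transcript. The other start of *Per1*, at chr11:69099902-69100151 on the plus strand, held a cAMP response core. *Per3* held 2 D-boxes, at chr4:151044666-151044915 on the minus strand.
Ciart: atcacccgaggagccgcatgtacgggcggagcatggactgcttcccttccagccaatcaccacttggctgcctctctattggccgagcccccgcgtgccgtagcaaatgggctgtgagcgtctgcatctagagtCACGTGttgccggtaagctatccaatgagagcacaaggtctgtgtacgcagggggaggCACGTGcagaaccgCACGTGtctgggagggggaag
Per1 upstream start: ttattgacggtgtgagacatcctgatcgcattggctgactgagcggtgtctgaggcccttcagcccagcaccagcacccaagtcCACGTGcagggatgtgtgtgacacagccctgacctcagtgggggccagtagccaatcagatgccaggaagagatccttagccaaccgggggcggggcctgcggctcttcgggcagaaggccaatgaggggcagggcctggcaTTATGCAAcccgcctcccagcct
Per1 downstream start: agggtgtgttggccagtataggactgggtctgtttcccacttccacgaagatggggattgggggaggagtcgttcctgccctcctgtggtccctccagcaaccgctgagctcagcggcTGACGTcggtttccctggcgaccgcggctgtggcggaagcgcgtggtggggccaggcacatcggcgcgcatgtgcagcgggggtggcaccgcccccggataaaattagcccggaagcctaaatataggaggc
Per3: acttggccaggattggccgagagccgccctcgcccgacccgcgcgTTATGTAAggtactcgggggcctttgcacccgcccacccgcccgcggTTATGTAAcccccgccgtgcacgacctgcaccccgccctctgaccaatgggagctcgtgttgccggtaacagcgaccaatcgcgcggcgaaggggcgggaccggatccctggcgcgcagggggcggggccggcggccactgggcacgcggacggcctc

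*Cry1* held an E-box and a variant E-box, *Nr1d1* a variant E-box, and *Arntl* a TAGGTCA core just after its start. In the windows of *Clock*, *Nr1d2* and *Dbp* none of the 5 motifs was found. A match describes the letters in these windows and is no measure of binding.

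Libraries held 14826957 to 21507527 counts (median 17683615). Columns of the table list the groups in order for 31 libraries and then start over for 12, and 7 of the 12 groups have libraries in both runs. Mitochondrial mRNA took 4.71% to 14.8% of the counts in the first run of columns and 2.50% to 4.57% in the second, so the run was a term of every fit. Several libraries stood apart. The library labelled female control 7 dpl replicate 2 had 784 counts of 4 Y-linked genes, which had no count in the other 21 female libraries. In female SCFA 3 dpl replicate 2, 5 lens genes summed to 221100 CPM (counts scaled to a common library size), against at most 628 in any other library. Male SCFA 7 dpl replicates 1 and 3 had the highest mitochondrial shares, at 13.8% and 14.8%. The 5 rod markers summed to between 45630 and 95470 CPM in every library, so that the defining genes of retina were present. Results are given with and without those libraries where they rest on them. In bulk retina, fewer cells of a type and less RNA per cell cannot be told apart, and p-values measure the spread between these pooled libraries.

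Per kilobase of exon, the nuclear receptors of the second loop were the most abundant clock transcripts and *Per2* the least. Levels averaged 44.1 CPM per kb for *Nr1d1* and 38.6 for *Nr1d2*, followed by *Dbp* (30.1), *Cry1* (20.4), *Per1* (16.3), *Arntl* (10.6), *Per3* (8.07), *Ciart* (6.57), *Clock* (6.06) and *Per2* (4.18). In CPM, which is not corrected for length and is the scale of all values below, *Nr1d1* stood at 136 ± 25.9 and *Arntl* at 79.4 ± 8.97 (SD, n = 43). The antisense gene *Thra* shares 263 exonic bases with *Nr1d1*, and *Sphk2* shares 539 with *Dbp*. The strand setting of the counting is not given in the sources used here, so reads in these stretches cannot be assigned.

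The highest library exceeded the lowest by between 1.54-fold for *Cry1* and 3.57-fold for *Per3*, with *Dbp* at 3.12-fold. After removal of group and run, *Arntl* had an SD of 0.12 on the log2 scale, at the 7.09th percentile of all genes compared, and *Per3* one of 0.33, at the 92.2nd percentile. *Dbp* had 0.29, at the 84.7th percentile.

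**Figure D1:**
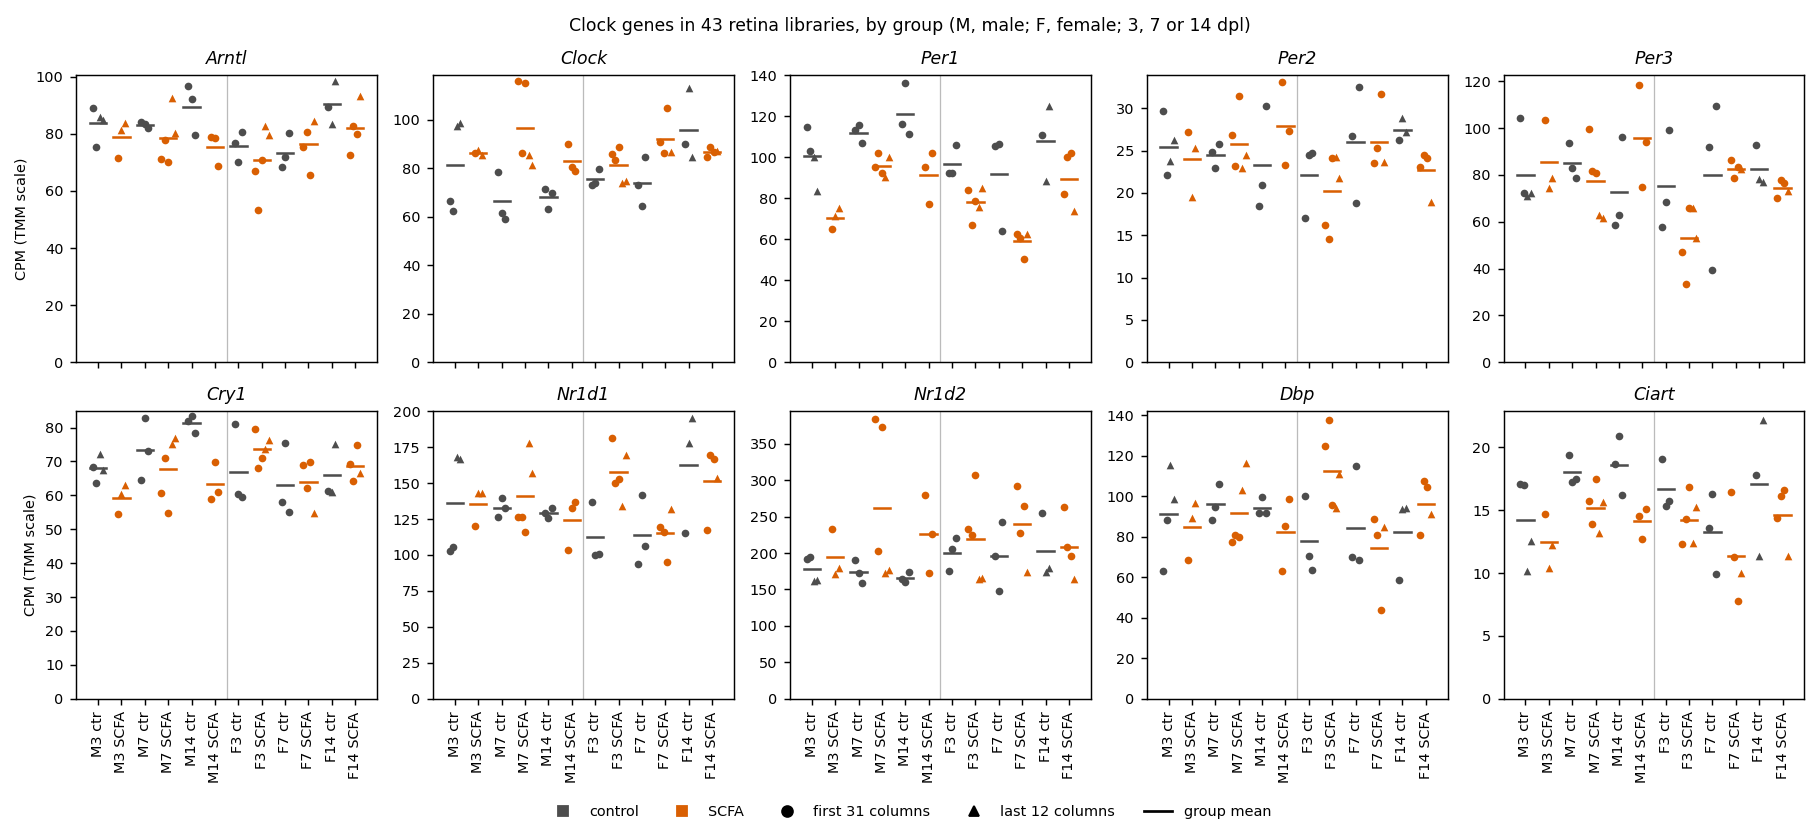
CPM of each of the 10 clock genes in the 43 libraries (one panel per gene, y axis in CPM), by sex, treatment and day on the x axis, with points for libraries, symbols for the run of columns and short lines for group means. *Per1* lies lower in SCFA than in control libraries in most panels of sex and day, and *Nr1d2* is highest in 2 male SCFA libraries at 7 dpl.

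Across the 12 groups, 5 of the 10 clock genes differed at an adjusted p under 0.1 (quasi-likelihood test of edgeR, adjusted over all genes tested, here and below), where 35.5% of all genes did. They were *Per1* (adjusted p = 8.14e-05), *Nr1d2* (0.00808), *Clock* (0.0384), *Arntl* (0.0522) and *Ciart* (0.0953). *Cry1*, *Nr1d1*, *Per3*, *Dbp* and *Per2* did not pass, with adjusted p between 0.117 and 0.428. The count was 9 of 10 without female control 7 dpl replicate 2, in a fit for which the share of all genes is not given here.

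The same 5 genes passed when SCFA was set against control as the mean of the 6 strata of sex and day, where again 35.5% of all genes passed. *Per1*, the light-responsive arm of the loop, was lower with SCFA by 0.39 on the log2 scale (log2 fold change -0.39, SE 0.058, adjusted p = 9.66e-06). *Ciart*, a repressor with 3 E-boxes in its promoter, fell by 0.22 (SE 0.079, adjusted p = 0.0369), and *Arntl*, the positive arm, fell by 0.13 (SE 0.041, adjusted p = 0.0157). *Nr1d2* rose by 0.33 (SE 0.070, adjusted p = 0.000652) and *Clock* by 0.20 (SE 0.058, adjusted p = 0.00839). The *Ciart* call rested on 1 library, since without female control 14 dpl replicate 3 its log2 fold change was -0.16 (adjusted p = 0.121).

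The other 5 did not pass. Log2 fold changes were -0.09 for *Cry1* (adjusted p = 0.205), 0.04 for *Nr1d1*, 0.00 for *Dbp* and -0.02 for both *Per3* and *Per2*, with SE between 0.0497 and 0.0954. Thus *Nr1d1* and *Nr1d2*, which encode related repressors, and *Per1* and the other *Per* genes, gave different values, a difference that was not itself tested. The median over the 10 genes was -0.02, beside 0.00 over all genes.

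*Per1* carried the clearest difference between treatments. In males at 3 dpl, SCFA libraries had 65.0, 71.3 and 75.5 CPM and controls 115, 103, 100.2 and 83.8. At 7 dpl, male SCFA libraries had 95.1, 102, 92.3, 90.2 and 100.1 CPM and controls 113, 116 and 107. At 14 dpl, male SCFA libraries had 95.3, 77.4 and 102 CPM and controls 116, 136 and 111. In none of these 3 comparisons did the treatments overlap, whereas 3.79%, 8.63% and 17.8% of all genes were lower without overlap at 3, 7 and 14 dpl.

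In females at 3 dpl, *Per1* stood at 84.2, 66.8, 78.8, 76.0 and 84.9 CPM with SCFA and at 92.2, 92.4 and 106 in controls. At 7 dpl, female SCFA libraries had 62.8, 60.6, 50.3 and 62.8 CPM and controls 106, 106 and 64.2, the last being replicate 3. At 14 dpl, the values were 82.1, 100.4, 102 and 73.8 CPM with SCFA and 111, 88.5 and 125 in controls. The treatments did not overlap at 3 and 7 dpl, where 3.91% and 3.3% of all genes were lower without overlap, and overlapped at 14 dpl. The mean log2 level of *Per1* was thus lower in all 6 strata, as was that of *Ciart* and of 6.8% of all genes. The mean log2 level of *Nr1d2* was higher in all 6, as were 6.9% of all genes, although in females at 14 dpl the fit with the run of columns gave -0.18.

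**Figure D2:**
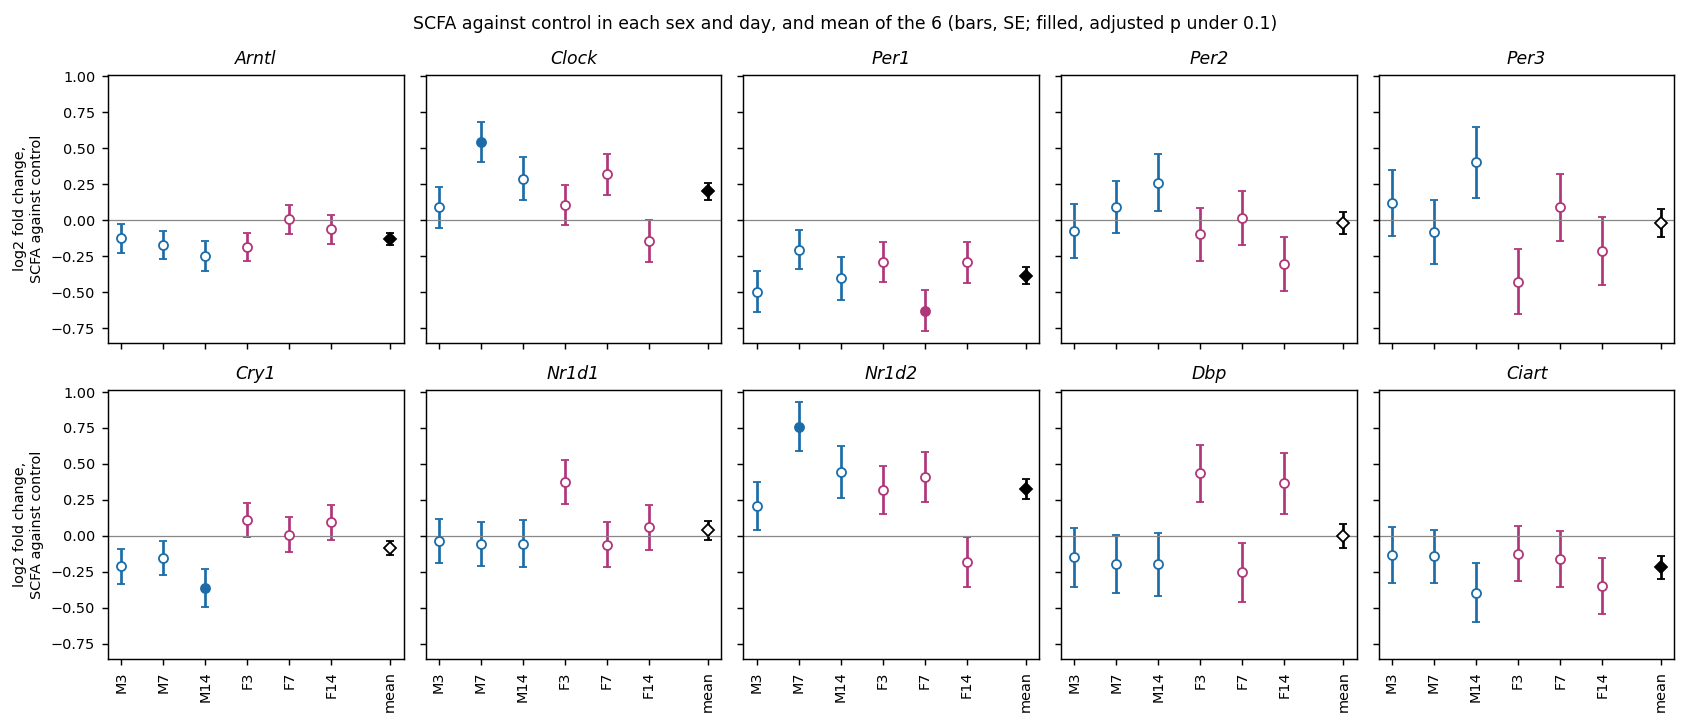
Log2 fold change of SCFA against control (y axis, bars SE) in the 6 strata of sex and day and as their mean (x axis), with one panel per clock gene and filled symbols at an adjusted p under 0.1. In this fit without the GC slope, *Per1* is below 0 in every stratum, from -0.20 in males at 7 dpl to -0.63 in females at 7 dpl, and *Nr1d2* is above 0 in all but females at 14 dpl (-0.18).

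Within single strata, 4 of 60 comparisons passed. Females at 7 dpl gave *Per1* (-0.63, SE 0.141, adjusted p = 0.0859), where 0.698% of all genes passed. Without female control 7 dpl replicate 2 this was -0.52, with an adjusted p of 0.438. Males at 14 dpl gave *Cry1*, the repressor partner of the PER proteins (-0.36, SE 0.129, adjusted p = 0.0990), where 8.22% of all genes passed. *Cry1* had 59.1, 69.8 and 61.0 CPM with SCFA and 82.1, 83.5 and 78.5 CPM in controls, without overlap, as in 17.8% of all genes in that direction. The adjusted p was above 0.1 in 31 of the 43 fits that left out 1 library.

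Males at 7 dpl gave *Nr1d2* (0.76, SE 0.169, adjusted p = 0.00210) and *Clock* (0.54, SE 0.139, adjusted p = 0.00635), where 23% of all genes passed. *Nr1d2* had 384, 203, 373, 173 and 177 CPM in SCFA replicates 1 to 5 and 191, 172 and 159 CPM in controls. Replicates 1 and 3 stood far above the controls, replicate 2 just above and replicates 4 and 5 among them. Replicates 4 and 5 were of the second run of columns, in which *Nr1d2* was lower by 0.55, and the controls were of the first. The fit adjusts for this, so the fitted 0.76 rests in part on the run term. Replicates 1 and 3 were the libraries with the highest mitochondrial share. *Clock* had 116, 86.1, 115, 85.2 and 81.2 CPM with SCFA against 78.3, 61.7 and 59.2 CPM, without overlap, as in 9.17% of all genes in that direction, and the same libraries were highest. These 2 libraries also had the lowest summed rod markers of all, at 55500 and 45630 CPM, and Muller glia markers of 6674 and 7677 CPM against 2501 to 3221 CPM in the controls. The part of these cells in the result was not tested. Without both libraries, the log2 fold changes were 0.38 for *Nr1d2* (adjusted p = 0.224) and 0.30 for *Clock* (adjusted p = 0.285). No clock gene passed in males at 3 dpl, females at 3 dpl or females at 14 dpl, where 0.0275%, 8.8% and 0% of all genes passed.

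An interaction term tested whether males and females responded differently to SCFA. None of 30 tests passed, by edgeR or by DESeq2, where 0.0165%, 0.022% and 0% of all genes passed at 3, 7 and 14 dpl by edgeR. At an unadjusted p under 0.05, which 13.2%, 7.86% and 10.4% of all genes reached, there were 6, namely *Dbp* at 3 dpl, *Per1* at 7 dpl, and *Nr1d2*, *Clock*, *Cry1* and *Per2* at 14 dpl. Their smallest adjusted p was 0.375 at 3 dpl, 0.595 at 7 dpl and 0.460 at 14 dpl.

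The libraries of the 2 treatments also differed by the base composition of the transcripts they held. For each library, the slope of its expression deviations on the GC content of 11690 genes was taken, in log2 units per 10 points of GC. It averaged -0.0668 ± 0.101 over SCFA libraries (SD, n = 24) and 0.0843 ± 0.0932 over controls (n = 19). The clock genes span a wide range of GC content, from 40.9% in *Clock* and 41.8% in *Nr1d2*, which rose with SCFA, to 59.4% in *Per1*, which fell, and 61.6% in *Dbp*.

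With this slope as a covariate, none of the 10 genes passed in the mean of the strata by edgeR, and the share of all genes that passed was 1.05%. *Per1* kept its direction in the mean (-0.22, SE 0.079, adjusted p = 0.191), although in males at 7 dpl it turned to 0.10. *Nr1d2* went to -0.02 (adjusted p = 0.936), *Clock* to -0.08 (0.526), *Arntl* to -0.08 (0.571) and *Ciart* to 0.00 (0.994). Genes near 0 without the covariate moved away from it, with *Dbp* at 0.31 (0.177), *Per2* at -0.22 (0.312) and *Per3* at -0.24 (0.417). *Nr1d1* gave 0.17 (0.399) and *Cry1* 0.02 (0.924). All 4 calls within single strata were lost, with *Per1* in females at 7 dpl at -0.36 (adjusted p = 0.9998), *Cry1* in males at 14 dpl at -0.23 (0.782), and *Nr1d2* and *Clock* in males at 7 dpl at 0.09 (0.846) and 0.00 (0.998). Instead, *Dbp* (0.62, adjusted p = 0.0487) and *Nr1d1* (0.45, 0.0783) passed in females at 3 dpl, where 8.89% of all genes did. Over the 12 groups, *Per1* alone of the 10 still passed (adjusted p = 0.00181), where 14.1% of all genes did. Since the slope itself differs between the treatments, an effect of SCFA on these genes and an effect of GC content cannot be told apart in this contrast.

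**Figure D3:**
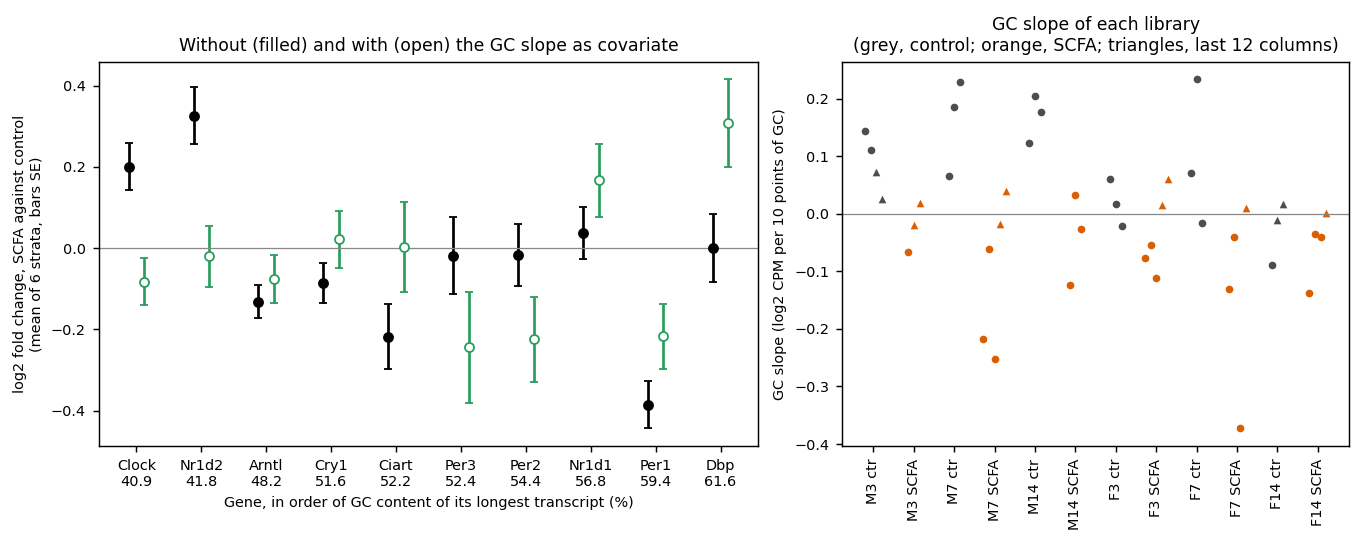
Left, log2 fold change of SCFA against control (y axis, mean of 6 strata, bars SE) for the clock genes in order of GC content (x axis), without and with the GC slope of the libraries as a covariate. Right, the GC slope of every library (y axis, log2 CPM per 10 points of GC) by group, which lies between -0.0894 and 0.234 in controls and between -0.373 and 0.0602 with SCFA.

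Beside the 10 genes, a second list of 20 clock genes was followed, and 11 passed in the mean of the strata, 6 higher and 5 lower with SCFA. Of all genes, 18% were higher and 17.5% lower, and whether the list exceeded these shares was not tested. *Nfil3*, a repressor that competes with DBP for the D-box, fell by 0.54 (adjusted p = 4.85e-05), and *Usp2*, a clock-controlled protease, fell by 0.33 (0.00262). *Cry2*, the paralogue of *Cry1*, fell by 0.20 (0.0126). *Rora*, which activates the elements that NR1D proteins repress, rose by 0.26 (0.00216). *Hlf*, a relative of *Dbp*, rose by 0.24 (0.00659). With the GC slope as covariate none of the 20 passed by edgeR, with *Nfil3* at -0.18 (adjusted p = 0.497), *Usp2* at -0.25 (0.332), *Cry2* at -0.03 (0.918), *Hlf* at 0.08 (0.726) and *Rora* turned to -0.04 (0.846). At an unadjusted p under 0.05 there were 3, *Usp2* and, named after their values were seen, *Btrc* and *Tef*.

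Of 6 genes known for daily rhythms in the retina, 4 passed, 1 higher and 3 lower, beside the same shares of all genes. *Opn4*, the melanopsin photopigment of intrinsically light-sensitive ganglion cells, fell by 0.45 (adjusted p = 0.000367) and *Drd4*, the dopamine receptor of photoreceptors, fell by 0.31 (0.000900). With the GC slope as covariate neither passed, *Opn4* at -0.27 (0.347) and *Drd4* turned to 0.03 (0.875). Markers of ganglion cells were lower too, at 3 of 4.

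The immediate early genes, which respond to light and activity as *Per1* does, were lower with SCFA in 11 of 12 cases, with a median log2 fold change of -0.73 beside 0.00 over all genes. Their summed level was 206 to 345 CPM in SCFA libraries (median 258) and 224 to 736 CPM in controls (median 482). The gap lay mostly in the first run of columns, where SCFA libraries had 206 to 345 CPM and controls 240 to 553 CPM. Of the 4 second-run controls, 3 lay at 224 to 280 CPM, within the 208 to 287 CPM of the SCFA libraries of that run, and female control 7 dpl replicate 3, with low *Per1*, had 240 CPM. *Egr1* was the furthest changed (-1.71, adjusted p = 1.99e-07), followed by *Nr4a1* (-1.22), *Fosb* (-1.01), *Fos* (-0.97) and *Junb* (-0.90). With the GC slope as covariate, *Egr1* (-1.45, adjusted p = 0.0208), *Nr4a1* (-0.99, 0.0223), *Fosb* (-0.87, 0.0208) and *Fos* (-0.81, 0.0877) still passed. Glucocorticoid targets, another route to *Per1*, were lower in 3 of 9 cases, with *Cdkn1a* at -0.75, *Mt2* at -0.46 and *Fkbp5* at -0.22, beside 17.5% of all genes. With the GC slope as covariate none of these 3 passed (-0.33, -0.35 and 0.00, adjusted p = 0.260, 0.493 and 0.997).

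Markers of other cells also moved in this contrast, in which 18% of all genes were higher and 17.5% lower. All 5 lens genes were higher with SCFA, with summed levels of 2.76 to 221100 CPM against 0.0567 to 371 CPM in controls. Of 4 Muller glia genes 3 were higher (2782 to 7677 CPM against 2501 to 4490), and of 4 ganglion cell genes 3 were lower (573 to 939 CPM against 616 to 1175). Of the 6 microglia genes 2 were lower, and none of the rod, cone and bipolar cell genes passed. The part of these lists in the results on clock genes was not tested.

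Between males and females, 5 of 60 comparisons passed. None of these was in controls at 3 or 7 dpl or with SCFA at 14 dpl, where 0.0604%, 0.055% and 0.0604% of all genes passed. The firmest was *Per1* with SCFA at 7 dpl, which was higher in males by 0.70 (SE 0.125, adjusted p = 0.00332), where 0.44% of all genes passed. Male libraries had 90.2 to 102 CPM and female libraries 50.3 to 62.8, with no overlap, and 0.973% of all genes were higher in males without overlap. It passed in all 43 fits that left out 1 library and in the 13 fits under other settings, also with the GC slope as covariate (0.69, adjusted p = 0.000830). In controls at 7 dpl, the same contrast of *Per1* gave 0.28, and the difference from the SCFA mice is the interaction at 7 dpl above, which did not pass. Of 12 immediate early genes none passed between the sexes in these SCFA libraries, with summed levels of 230 to 290 CPM in males and 206 to 260 CPM in females.

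With SCFA at 3 dpl, *Per3* was higher in males (0.71, SE 0.218, adjusted p = 0.0490) and *Cry1* lower (-0.34, SE 0.118, adjusted p = 0.0706), where 14.8% of all genes passed. *Per3* had 104, 74.4 and 78.6 CPM in males and 47.1, 33.3, 66.0, 65.9 and 53.0 in females, with no overlap, as in 8.08% of all genes in that direction. The lowest female library, at 33.3 CPM, was the one rich in lens mRNA, and without it *Per3* gave 0.60 (adjusted p = 0.127). Without male SCFA 3 dpl replicate 1, the highest, it gave 0.60 as well (adjusted p = 0.293). All 5 lens genes and 2 of 4 Muller glia genes were lower in males in this contrast, beside 6.8% of all genes. The part of these markers in it was not tested.

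In controls at 14 dpl, *Nr1d2* (-0.63, SE 0.191, adjusted p = 0.0734) and *Clock* (-0.50, SE 0.159, adjusted p = 0.0851) were lower in males, where 5.03% of all genes passed. *Clock* had 71.2, 63.1 and 69.7 CPM in males and 90.0, 113 and 84.4 in females, without overlap, as in 10.6% of all genes in that direction. *Nr1d2* had 164, 161 and 174 CPM in males and 255, 174 and 180 in females, so that only female replicate 1 stood clear of the males. With the GC slope as covariate the 2 genes gave -0.07 and -0.03 (both adjusted p = 0.999), and the calls were lost in 6 and 13 of the 43 fits that left out 1 library. Of these females, replicates 2 and 3 were of the second run of columns and all males of the first. In the mean level of the second run, *Nr1d2* was lower by 0.55, and the fit adjusts for this. Group means of *Nr1d2* before that adjustment were 166 CPM in males and 203 CPM in females, so the fitted -0.63 rests in part on the run term. That run difference turned to 0.0659 with the mitochondrial share as covariate. The shares of the runs do not overlap, so that fit separates run and share poorly.

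Between days, 4 of 80 comparisons passed, all of them 7 against 3 dpl in females with SCFA, where 18.2% of all genes passed. From 3 to 7 dpl, the other groups had 0.0165% (control males), 0.0165% (SCFA males) and 0% (control females) of all genes called. From 7 to 14 dpl, the shares were 0.0165% and 2.13% in control and SCFA males and 0.0055% and 0% in control and SCFA females. *Per3* rose (0.61, SE 0.204, adjusted p = 0.0499), whereas *Dbp* (-0.57, SE 0.181, adjusted p = 0.0385), *Nr1d1* (-0.42, SE 0.137, adjusted p = 0.0446) and *Per1* (-0.41, SE 0.125, adjusted p = 0.0328) fell. *Dbp* went from 125, 138, 95.7, 94.4 and 111 CPM at 3 dpl to 88.7, 80.7, 44.1 and 85.0 CPM at 7 dpl. *Nr1d1* went from 182, 150.4, 153, 134 and 169 CPM to 119, 116, 94.9 and 132 CPM, and for both genes every library at 7 dpl was below every one at 3 dpl, as in 2.54% of all genes.

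*Per3* had 86.2, 78.9, 83.3 and 82.5 CPM at 7 dpl, all above the 3 dpl libraries, as in 4.84% of all genes, while *Per1* was lower without overlap. Single libraries decided these calls. Without female SCFA 7 dpl replicate 3, *Dbp* gave -0.40 (adjusted p = 0.166), *Nr1d1* -0.36 (0.139) and *Per1* -0.34 (0.122). Without the lens-rich female SCFA 3 dpl replicate 2, *Per3* gave 0.46 (0.206), *Dbp* -0.45 (0.177) and *Nr1d1* -0.40 (0.138), and *Per1* still passed (-0.46, 0.0651). All 5 lens genes, 5 of 7 pigment cell genes and 2 of 4 Muller glia genes were lower at 7 dpl, beside 7.75% of all genes. The part of these markers was not tested.

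Between the runs of columns, 5 of the 10 genes differed, where 53.3% of all genes did. In the second run *Nr1d2* was lower (-0.55, adjusted p = 7.08e-06) and *Ciart* was lower (-0.27, 0.0305). *Nr1d1* (0.31, 0.00188), *Dbp* (0.27, 0.0401) and *Arntl* (0.20, 0.00177) were higher. *Arntl* thus differed in the same direction as its repressor *Nr1d1* and in the opposite direction to its repressor *Nr1d2*. What sets the runs apart is not given in the sources used here.

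In clocks read at different phases, *Arntl* runs opposite to targets such as *Nr1d1* and *Dbp*. Over the 43 libraries, after removal of group and run, *Arntl* was compared with the 9 other genes by Pearson's r and Spearman's rho with permutation tests. The permutations treat the 43 residuals as free, whereas 30 degrees of freedom remain, so their p-values are too small. None of 9 passed after Benjamini-Hochberg adjustment. The largest r was with *Per3* (r = 0.31, p = 0.0408, adjusted 0.239; rho = 0.25, p = 0.109, adjusted 0.276), and it was 0.17 without the 2 libraries farthest from the median of *Arntl*. Within the runs it was 0.28 and 0.19. With *Dbp* the r was -0.23 and with *Nr1d1* -0.06 (permutation p = 0.142 and 0.726).

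Other pairs moved together strongly. The strongest of the 45 pairs, picked after their values were seen, were *Dbp* with *Nr1d1* (r = 0.80, rho = 0.82), *Per2* with *Per3* (r = 0.80, rho = 0.73) and, in opposite direction, *Per3* with *Dbp* (r = -0.68, rho = -0.66). Since they were picked by their r, no test is given. Without the 2 farthest libraries, r was 0.80, 0.74 and -0.71. Within the first run of columns the 3 values were 0.80, 0.83 and -0.64, and within the second 0.33, 0.56 and -0.59. Libraries ranged from high *Per3* and *Per2* with low *Dbp* and *Nr1d1* to the reverse. This axis was not particular to the clock genes. The largest component of variation over 11700 genes, after removal of group and run, held 27.0% of that variation. Its r was 0.85 with the log2 difference of *Per3* and *Dbp*. With the single genes it was 0.89 for *Per3*, 0.67 for *Per2*, -0.65 for *Dbp* and -0.48 for *Nr1d1*. The ratio of *Per3* to *Dbp* in CPM ran from 0.242 in female SCFA 3 dpl replicate 2 to 1.89 in female SCFA 7 dpl replicate 3.

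**Figure D4:**
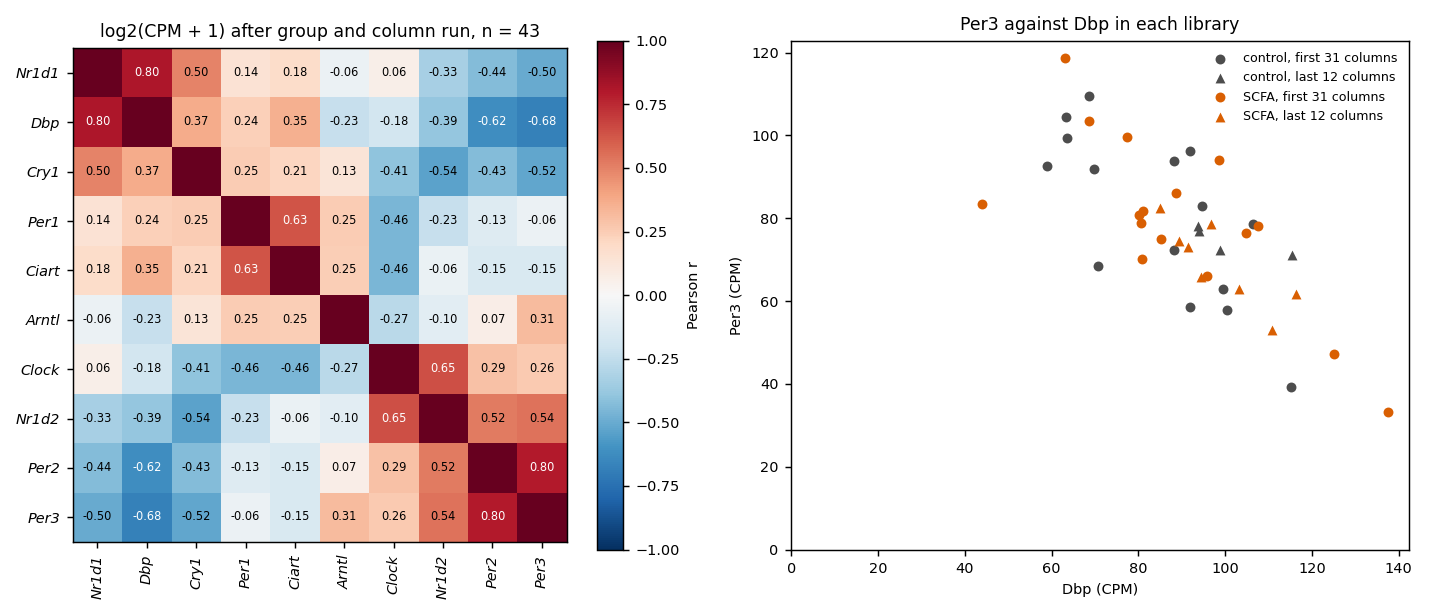
Pearson's r of log2(CPM + 1) residuals for the 45 pairs of clock genes over 43 libraries (colour, both axes list the genes), and CPM of *Per3* (y axis) against *Dbp* (x axis) in each library, by treatment and run of columns. *Per2* and *Per3* form one block and *Dbp* and *Nr1d1* another, with r of -0.68 between *Per3* and *Dbp*, and *Arntl* is not strongly tied to either.

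The same axis followed the mitochondrial share of the libraries. Over 43 libraries and 10 relations, the log2 share rose with *Nr1d2* (r = 0.75, rho = 0.68, permutation p = 1e-05, adjusted 1e-04) and with *Per3* (r = 0.60, rho = 0.51, permutation p = 3e-05, adjusted 0.00015). It fell with *Dbp* (r = -0.58, rho = -0.61, permutation p = 6e-05, adjusted 0.0002) and *Nr1d1* (r = -0.55, rho = -0.64, permutation p = 0.00012, adjusted 0.0003). Without the 2 farthest libraries, r was 0.75, 0.56, -0.55 and -0.57 for these 4 genes. Within the first run it was 0.90, 0.62, -0.55 and -0.47, and within the second, of 12 libraries in 7 groups, 0.58, 0.32, -0.09 and 0.10. The relation with *Dbp* and *Nr1d1* was not seen there, but after removal of group few differences between libraries remain in that run. *Per2* and *Cry1* also passed (r = 0.47 and -0.42), and *Arntl*, *Clock*, *Per1* and *Ciart* did not. These permutation p-values have the limit stated above for *Arntl*. The share of all genes that follow the mitochondrial share was not counted. The largest component over 11700 genes itself had an r of 0.72 with it, so the relation is not particular to clock genes. Within the first and second run, r was 0.66 and 0.16 for *Per2*, -0.41 and 0.83 for *Cry1*, and 0.59 and -0.89 for *Clock*. The signs for *Cry1* and *Clock* differed between the runs, but the few differences left in the second run cannot show a turn. *Arntl*, *Per1* and *Ciart* had 0.12, -0.15 and -0.01 in the first run and 0.83, 0.69 and 0.71 in the second.

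Genes outside the clock followed the difference of *Per3* and *Dbp* even more closely. Among 11690 genes with a mean of at least 5 CPM, *Akap7* and *Brwd1* (both r = 0.95) ran most nearly with it, and *Faim2* (r = -0.89) was among the 8 genes that ran most strongly against it. So was *Cry2* (r = -0.88), which is itself a clock gene of the second list.

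A clock index summed the loop in 1 value per library, as the mean log2 level of *Per1*, *Per2*, *Per3*, *Nr1d1*, *Nr1d2*, *Dbp* and *Ciart* minus that of *Arntl*, *Clock* and *Cry1*, the last being a target that is known to peak later than the others. It ran from -0.361 in female SCFA 7 dpl replicate 3 to 0.289 in male SCFA 14 dpl replicate 3, with an SD of 0.133. Group means lay between -0.155 ± 0.148 in females with SCFA at 7 dpl (SD, n = 4) and 0.140 ± 0.0410 in control males at 7 dpl (n = 3). All other group means lay from -0.0367 to 0.106. Group and run accounted for 48.2% of its variance. That fit left 30 residual degrees of freedom over 43 libraries, so part of this share would arise without any difference between groups or runs. Left without *Cry1*, the spread of the group means was 0.419 in place of 0.296. The genes that most resembled the index were *Dnajc17* (r = 0.73) and *Grik5* (r = 0.69), neither a clock gene, and *Peli2* (r = -0.72) and *Cse1l* (r = -0.71) ran against it.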

How the data were processed

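Retinal RNA of 43 libraries was sequenced as paired-end reads at a service provider. The authors deposited raw counts of reads per gene, without normalization, on mm10 per the labels. The aligner, counter and strand setting are not given in the sources used here. Genes were named by GENCODE M21 on GRCm38 (54495 of 54532 identifiers), and promoters were taken from RefSeq.

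Genes with low counts were removed by filterByExpr, libraries were scaled by TMM, and group and run of columns were terms of 1 model over the 43 libraries in edgeR 4.0.16 and R 4.3.3 (glmQLFit, glmQLFTest). Genes with a Benjamini-Hochberg adjusted p under 0.1 over 18197 genes were called. The study also asks for a fold change over 1, which was an alternative. DESeq2 1.42.0 was an alternative. Correlations used log2(CPM + 1) residuals and 100000 permutations, two-sided, in Python 3.11.15 with scipy 1.17.1, pandas 2.3.3 and numpy 2.4.6, and plots matplotlib 3.10.9. The fits were tested on simulated data.

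Named genes are the 10 clock genes, up to 6 others per list by smallest p, and genes most like an index; not every gene under this rule is reported here. Members and lists were chosen with earlier results of these data known. The GC slope, the mitochondrial share and the *Per3* to *Dbp* axis were added after the data were seen. Groups were taken from sample titles. Replicate numbers did not pair libraries.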

Additional observations from a re-analysis of the deposited data

Results flagged for a closer look

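*Per3* in male control retinas at 3 dpl had 1 library far from the others. Replicate 1 stood at 104 CPM, whereas the other 3 libraries lay between 71.1 and 72.4 CPM. The gap took 0.963 of the range of the group, above the critical value of 0.829 for 4 samples. The check was run on 50 combinations of a clock gene and a group of 4 or more libraries, and chance alone marks about 1 in 20.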

How the results depend on the processing

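Counts of clock genes called moved with several settings. The share of all genes called moved too, over the 12 groups from 35.5% to 14.1% with the GC slope as covariate. For most settings that share is not given here, so a moved count is not by itself a result about clock genes. Over the 12 groups, 5 of 10 were called, against 3 with no filter on low counts, 2 without the run of columns, 9 without female control 7 dpl replicate 2, 1 with the GC slope as covariate, 3 at an adjusted p under 0.05, and 3 to 9 when 1 library was left out. SCFA against control within strata gave 4 of 60, against 1 without the run, 2 with the GC slope (none of them among the 4), 11 with only the compared groups in the fit, 2 at an adjusted p under 0.05, and 2 to 7 with 1 library left out. The mean of the strata gave 5, against 0 with the GC slope and 4 to 5 with 1 library left out. Between the sexes, 5 of 60 became 2 with no filter, 2 in the first run only, 3 with only the compared groups, 2 at an adjusted p under 0.05, and 3 to 7 with 1 library left out. Between days, 4 of 80 became 1 to 5 with 1 library left out. Between runs, 5 became 3 with the replicate number as a block and 2 with the mitochondrial share as covariate. No call also had an absolute log2 fold change over 1, so that threshold, which the study states as a fold change, left 0 in each of these comparisons except over the 12 groups, where it was not applied. *Arntl* had 1 relation at an unadjusted p under 0.05, 0 in the first run, 2 in the second, where few differences within groups remain, and 2 without the run term. The last 2 were with *Nr1d2* (r = -0.50, rho = -0.50, permutation p of r = 0.0007) and *Nr1d1* (r = 0.31, rho = 0.30, permutation p of r = 0.0441). *Arntl* and both of these genes also differed between the runs. The spread of the clock index was 0.419 without *Cry1*.

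Direction turned with the GC slope as covariate for *Nr1d2* (-0.0199), *Clock* (-0.0827) and *Ciart* (0.00391) in the mean of the strata, for *Clock* in males at 7 dpl (-0.00178) and for *Clock* between runs (0.17). Results not called in either fit also turned, among them *Cry1* in the mean of the strata (0.0214), *Per1* in males at 7 dpl (0.10) and *Per2* between runs (0.0622). With the mitochondrial share it turned between runs for *Nr1d2* (0.0659), *Nr1d1* (-0.0847), *Dbp* (-0.30) and *Per3* (0.51), and for the uncalled *Clock*, *Cry1* and *Per2*. Since the mitochondrial shares of the runs do not overlap, these run values are poorly determined. The cause was not tested. Same-numbered libraries did not deviate together (mean r 0.04 over 18 pairs, 8 over 0.1). With the replicate number as a block, counts were 4 over the 12 groups, 4 within strata, 5 in their mean, 4 between sexes and 4 between days. Group sizes of 3 to 5 limit what single strata can show.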
